A study of Homo sapiens with 12 samples.

Results

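The glutathione, thioredoxin and NADPH antioxidant genes are 41 genes chosen by symbol. They hold the NRF2 switch (NFE2L2 and KEAP1), quinone and carbonyl reductases, enzymes that supply and recycle glutathione, the thioredoxin system and peroxiredoxins. Other peroxide and superoxide enzymes and glutathione transferases with an export pump are also included. The rest are enzymes that supply NADPH, the pentose phosphate enzymes TALDO1 and TKT, and the growth inhibitor gene OSGIN1. All 41 symbols matched exactly 1 of the 62914 entries of the expression tables, and all 41 passed the low-count filter that left 16628 genes for testing. The genes were measured by mRNA sequencing in THP-1, an established human monocytic leukemia line, in 4 groups of 3 libraries. Cells received 50 μM chlorquinaldol, 20 μM chlorquinaldol or 3'-3'-cGAMP at 1 μg/mL, each for 8 h, and the reference was untreated THP-1. Chlorquinaldol is a chlorinated hydroxyquinoline antiseptic, and cGAMP, which binds the sensor STING, served as the positive control for antiviral signaling. All groups are of the same line, no vehicle is named for the untreated cells, and no label says that replicates came from separate cultures, so p-values measure the spread between these libraries, which may be technical.

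Cells keep reactive oxygen species in check by moving electrons from NADPH to glutathione and thioredoxin, which in turn supply the peroxidases that reduce hydrogen peroxide and lipid peroxides. Many of the genes are switched on by the transcription factor NRF2, which KEAP1 marks for degradation until oxidants or electrophiles modify cysteines of KEAP1. Monocytic cells also make oxidants themselves through the phagocyte NADPH oxidase, so the pathway meets both internal and external sources of peroxide.

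Libraries held between 17620929 and 19222607 estimated counts. Levels are given as CPM, counts relative to the library's total after TMM scaling, and a gene was called where edgeR's quasi-likelihood test gave an adjusted p below 0.05 over all 16628 tested genes. The 10 monocytic markers summed to 1360 to 1600 CPM at 50 μM, 1280 to 1420 CPM at 20 μM, 1660 to 1880 CPM with cGAMP and 1540 to 1600 CPM in untreated cells. At 50 μM, ITGAM, CSF1R, CD14 and SPI1 of these markers were called higher than in untreated cells (3.08-, 2.67-, 1.86- and 1.29-fold). FCGR1A, LYZ, CEBPA and MPO were called lower, at 0.795, 0.46, 0.383 and 0.255 times the untreated level, and CD33 and CD68 were not called. The 4 markers of T and NK cells summed to 13 to 16.2 CPM at 50 μM and 8.78 to 11 CPM in untreated cells, and the 3 B cell markers, of which MS4A1 was at 0, to 4.32 to 4.93 CPM at 50 μM and 2.56 to 2.9 CPM in untreated cells. The part of these markers in the results was not tested. Markers of epithelium, fibroblasts and erythroid cells summed to at most 0.925, 0.924 and 0.114 CPM in any library. In bulk libraries such as these, fewer cells of a type and less RNA per cell cannot be told apart.

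At 50 μM chlorquinaldol, 28 of the 41 genes were higher and 11 lower than in untreated cells, against 32.2% of all tested genes higher and 34.7% lower. Of these, 14 were at least 2-fold higher and 2 at least 2-fold lower, where 14.4% and 12.8% of all tested genes were. The median change over the 41 genes was log2 0.48, beside log2 −0.03 over all tested genes. The 41 genes were chosen with earlier results of these data known, so these contrasts are no test of the set. At 20 μM, 17 were higher and 8 lower, against 27.1% and 28.0% of all tested genes, and the median was log2 0.15. The 8 lower became 3 without replicate 3 at 20 μM, 4 to 8 without any other single library, and 4 or 5 with DESeq2, other scaling factors, no filter or limma. At least 2-fold changes at 20 μM numbered 5 higher and 1 lower, against 8.77% and 6.18% of all tested genes. AKR1B1 and GPX1 were the 2 genes not called at 50 μM.

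**Figure D1:**
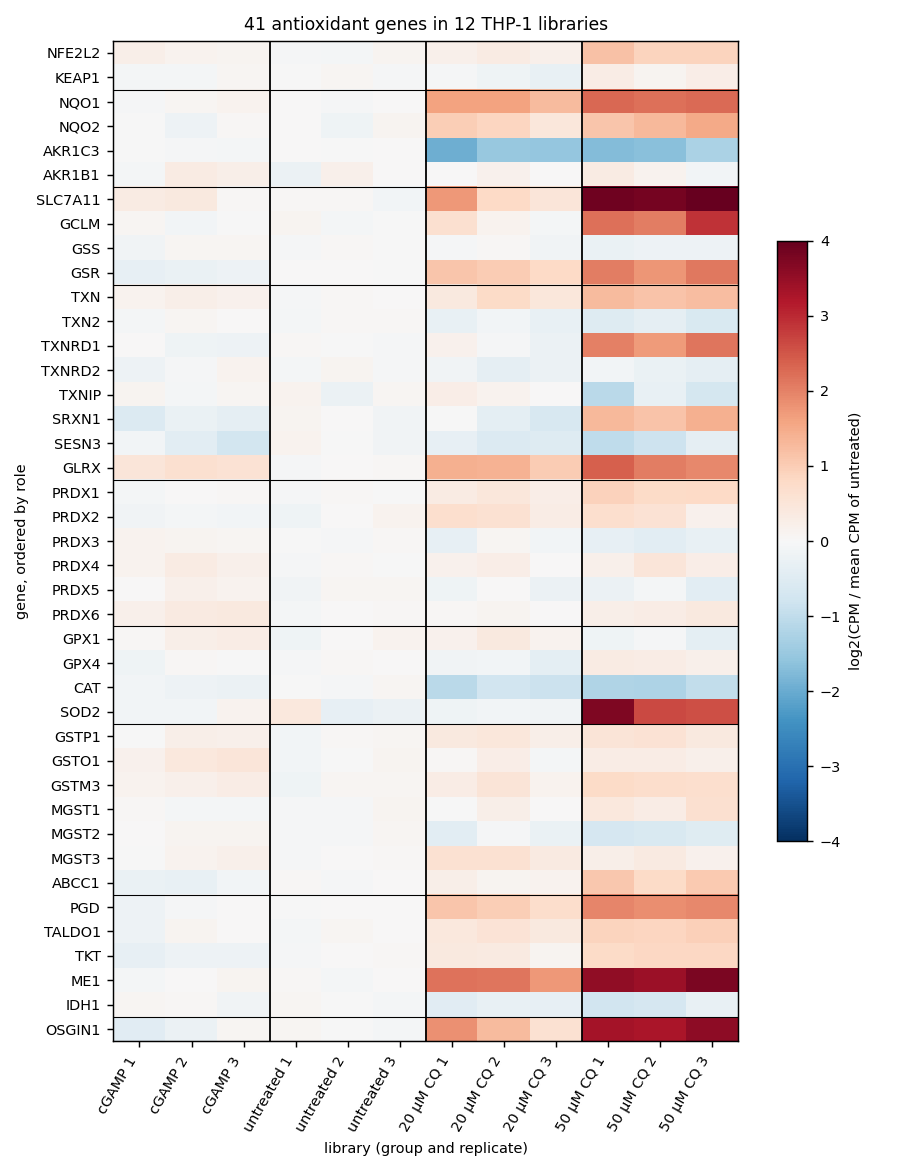
Log2 ratio of each library's CPM to the mean of the 3 untreated libraries, for the 41 genes (rows, grouped by role with black lines between roles) in the 12 libraries (columns). The strongest red, in the 3 libraries at 50 μM, belongs to SLC7A11, ME1, OSGIN1 and SOD2, and blue in both chlorquinaldol doses marks AKR1C3 and CAT.

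Gene positions are those of GENCODE 29 on GRCh38, which holds none for the identifier of SOD2 in the tables. NFE2L2 (chr2:177227595-177392697, minus strand), which encodes NRF2 itself, had 78.4, 77 and 86.4 CPM in untreated cells, 92.8, 102 and 92.6 CPM at 20 μM and 183, 150 and 150 CPM at 50 μM. The 3 dose groups did not overlap, and the step between 20 and 50 μM was the wider. The log2 change was 0.25 ± 0.09 (SE) at 20 μM (adjusted p = 0.0218) and 1.00 ± 0.09 at 50 μM (adjusted p = 1.85e-08), which places NFE2L2 just inside the 2-fold mark. The call at 20 μM was lost without untreated replicate 1 (adjusted p = 0.0729) or untreated replicate 2 (0.0885). KEAP1 (chr19:10486120-10503741, minus strand), the adaptor that hands NRF2 to a ubiquitin ligase, had 74.5, 80.1 and 72.7 CPM in untreated cells, 73.6, 67.5 and 61.4 CPM at 20 μM and 93.8, 81.3 and 91.3 CPM at 50 μM. Libraries at 50 μM lay above all others, by little. KEAP1 was not called at 20 μM (log2 −0.17 ± 0.09, adjusted p = 0.11), rose at 50 μM (0.23 ± 0.09, adjusted p = 0.025) and rose between the doses (0.40 ± 0.09, adjusted p = 0.00149). The call at 50 μM was lost without untreated replicate 1 (adjusted p = 0.0728) or 3 (0.0939), and in all 3 limma fits on FPKM (up to 0.0953).

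NRF2 pairs with small MAF proteins on antioxidant response elements, whose core reads TGACNNNGC, and the related AP-1 element reads TGANTCA. Both motifs were searched on both strands in the RefSeq promoter windows (GRCh38.p14), which run from 250 bases before to 50 bases after a gene's start. 33 of the 41 genes had at least 1 window, 50 windows in all. TGACNNNGC was present in 10 of the 50 windows (20.0%), which belong to 9 genes, and in 13.3% of all 35116 windows. TGANTCA was present in 3 of the 50 windows (6.0%) and in 7.71% of all windows. A sequence TGACTCAGC counts for both. Genes with TGACNNNGC were GCLM, GSTO1, GSTP1, IDH1, KEAP1, ME1, MGST1, PGD and TXNRD1, and those with TGANTCA were GSTP1, ME1 and OSGIN1. ABCC1, GSR, GSS, MGST2, PRDX1, PRDX6, SLC7A11 and TXN2 were not matched to a window.

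The 250 bases before the start are printed for 4 of the genes that rose strongly at 50 μM and hold a match. GSTP1, which holds the same 9 letters as ME1 and rose by log2 0.48 only, is also printed. The OSGIN1 match is to TGANTCA alone. PGD, IDH1, GSTO1, KEAP1 and MGST1 hold TGACNNNGC too and are not printed. At 50 μM they changed by log2 1.91, −0.55, 0.27, 0.23 and 0.47. Capitals mark the matches that lie wholly in the printed bases. The regions are chr6:83431052-83431301 (minus strand) for ME1, chr1:93909431-93909680 (minus) for GCLM, chr12:104215529-104215778 (plus) for the first TXNRD1 start, chr12:104286782-104287031 (plus) for the second TXNRD1 start, chr16:83952990-83953239 (plus) for OSGIN1 and chr11:67583562-67583811 (plus) for GSTP1.
ME1: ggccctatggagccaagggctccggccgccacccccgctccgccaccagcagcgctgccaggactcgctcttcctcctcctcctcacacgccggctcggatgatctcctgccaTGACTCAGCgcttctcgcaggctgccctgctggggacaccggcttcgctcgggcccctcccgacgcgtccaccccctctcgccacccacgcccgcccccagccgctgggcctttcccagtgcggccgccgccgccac
GCLM: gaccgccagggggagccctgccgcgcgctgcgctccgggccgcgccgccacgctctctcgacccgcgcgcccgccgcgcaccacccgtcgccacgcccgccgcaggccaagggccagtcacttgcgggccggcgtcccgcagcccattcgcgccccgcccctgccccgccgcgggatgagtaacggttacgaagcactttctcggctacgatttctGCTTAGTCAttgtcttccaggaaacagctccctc
TXNRD1, first start: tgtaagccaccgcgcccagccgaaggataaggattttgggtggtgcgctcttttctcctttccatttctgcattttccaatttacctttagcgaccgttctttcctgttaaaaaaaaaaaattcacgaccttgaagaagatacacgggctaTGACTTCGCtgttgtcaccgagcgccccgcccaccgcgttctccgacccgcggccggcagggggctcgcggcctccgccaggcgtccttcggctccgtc
TXNRD1, second start: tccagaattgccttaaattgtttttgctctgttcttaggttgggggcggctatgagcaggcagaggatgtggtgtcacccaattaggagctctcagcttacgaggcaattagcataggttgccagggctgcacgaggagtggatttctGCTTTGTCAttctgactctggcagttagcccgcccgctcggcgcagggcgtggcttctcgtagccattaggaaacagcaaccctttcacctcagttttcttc
OSGIN1: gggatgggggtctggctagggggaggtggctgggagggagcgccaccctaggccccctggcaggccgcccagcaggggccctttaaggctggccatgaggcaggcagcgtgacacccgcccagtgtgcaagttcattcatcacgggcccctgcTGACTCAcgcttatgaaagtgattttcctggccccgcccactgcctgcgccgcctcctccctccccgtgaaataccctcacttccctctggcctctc
GSTP1: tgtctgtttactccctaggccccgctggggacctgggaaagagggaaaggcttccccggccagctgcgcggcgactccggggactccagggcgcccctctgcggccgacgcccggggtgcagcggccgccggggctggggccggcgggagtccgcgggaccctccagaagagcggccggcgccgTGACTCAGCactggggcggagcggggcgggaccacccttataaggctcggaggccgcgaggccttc
Positions are counted from 0 at the first base of the transcript. The marked match lies at −137 to −129 in ME1, −34 to −26 in GCLM, −97 to −91 in OSGIN1 and −66 to −58 in GSTP1. At the TXNRD1 starts it lies at −99 to −91 and −102 to −94. In GCLM and at the second TXNRD1 start the motif reads on the opposite strand, where it is TGACTAAGC and TGACAAAGC. A further TGACNNNGC, not wholly in the printed bases, lies at 11 to 19 in ME1 and −8 to 0 at the first TXNRD1 start. Both read on the opposite strand. These matches describe the letters only.

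Of the 4 quinone and carbonyl reductases, 2 rose at both doses, 1 fell at both and 1 was not called. Among all tested genes, the shares called higher and lower were 32.2% and 34.7% at 50 μM and 27.1% and 28.0% at 20 μM. NQO1 (chr16:69706996-69726951, minus strand), which reduces quinones with both electrons at once and is a standard NRF2 target, had 61.8, 58.8 and 62.3 CPM in untreated cells, 187, 187 and 147 CPM at 20 μM and 298, 282 and 293 CPM at 50 μM. No library of any dose group overlapped another group. The log2 change of NQO1 was 1.51 ± 0.09 at 20 μM (adjusted p = 1.03e-09) and 2.25 ± 0.09 at 50 μM (adjusted p = 2.62e-12). NQO2 (chr6:2987987-3028869, plus strand), its relative that uses a different hydride donor, had 6.18, 5.43 and 6.57 CPM in untreated cells, 11.9, 10.9 and 8.3 CPM at 20 μM and 13, 15 and 17.4 CPM at 50 μM. The groups were again separate, with replicate 3 at 20 μM the nearest to untreated cells. NQO2 rose by log2 0.77 ± 0.15 at 20 μM (adjusted p = 0.000323) and 1.32 ± 0.15 at 50 μM (adjusted p = 4.23e-07). AKR1C3 (chr10:5035354-5107686, plus strand), an aldo-keto reductase of steroids and prostaglandins, had 16.7, 16.2 and 16.7 CPM in untreated cells, 4.28, 5.71 and 5.68 CPM at 20 μM and 4.92, 5.23 and 6.82 CPM at 50 μM. Both doses lay far below untreated cells and overlapped each other. AKR1C3 fell by 1.66 on the log2 scale at 20 μM (SE 0.13, adjusted p = 1.83e-08) and by 1.54 at 50 μM (SE 0.13, adjusted p = 1.31e-08). Between the doses its difference was log2 0.12 with a 95% interval from −0.18 to 0.43. AKR1B1, aldose reductase, ranged from 31.4 to 46.5 CPM over the chlorquinaldol and untreated libraries, with log2 0.13 ± 0.13 at 50 μM (adjusted p = 0.356, and 0.0364 without replicate 3 at 50 μM).

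Glutathione supply held the largest change among the 41 genes. SLC7A11 (chr4:138164097-138242349, minus strand), the cystine importer that feeds glutathione synthesis, had 7.64, 7.79 and 6.96 CPM in untreated cells, 25, 13 and 10.4 CPM at 20 μM and 110, 107 and 145 CPM at 50 μM. The groups did not overlap, and at 20 μM replicate 1 stood well above the other two. SLC7A11 rose by log2 1.11 ± 0.24 at 20 μM (2.16-fold, adjusted p = 0.000842) and 4.01 ± 0.23 at 50 μM (16.1-fold, adjusted p = 1.14e-10). In limma on log2(FPKM + 1), a scale that understates changes of low genes, the change was 0.51 at 20 μM (adjusted p = 0.0442, and 0.112 without the filter on low FPKM) and 2.87 at 50 μM (adjusted p = 1.7e-07). GCLM (chr1:93885205-93909456, minus strand), the regulatory subunit of the enzyme that makes the first step of glutathione synthesis, had 42.1, 37.1 and 39.0 CPM in untreated cells, 61.0, 43.7 and 37.3 CPM at 20 μM and 182, 163 and 295 CPM at 50 μM. At 20 μM replicate 1 stood well above the untreated libraries, replicate 2 just above them and replicate 3 within their range, while all 3 libraries at 50 μM were far above. GCLM was not called at 20 μM (log2 0.26 ± 0.19, adjusted p = 0.253, and 0.00679 with no low-count filter) and rose by log2 2.44 ± 0.19 at 50 μM (5.41-fold, adjusted p = 4.86e-09). GSR (chr8:30678061-30727999, minus strand), which returns oxidised glutathione to its reduced form at the expense of NADPH, had 91.1, 90.6 and 89.2 CPM in untreated cells, 193, 184 and 157 CPM at 20 μM and 375, 310 and 386 CPM at 50 μM. The groups were separate, with a 1.97-fold step to 20 μM and a 2.01-fold step between the doses. GSR rose by log2 0.98 ± 0.09 at 20 μM (adjusted p = 1.77e-07) and by 1.98 ± 0.10 at 50 μM (adjusted p = 1.39e-11). GSS, the enzyme of the second step of synthesis, was not called at 20 μM and fell by 0.23 on the log2 scale at 50 μM (SE 0.08, adjusted p = 0.0151). The GSS call was lost when any of 8 of the 12 libraries was left out, with an adjusted p of up to 0.178 without replicate 1 at 50 μM, and with DESeq2 (0.0533) or no low-count filter (0.179).

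**Figure D2:**
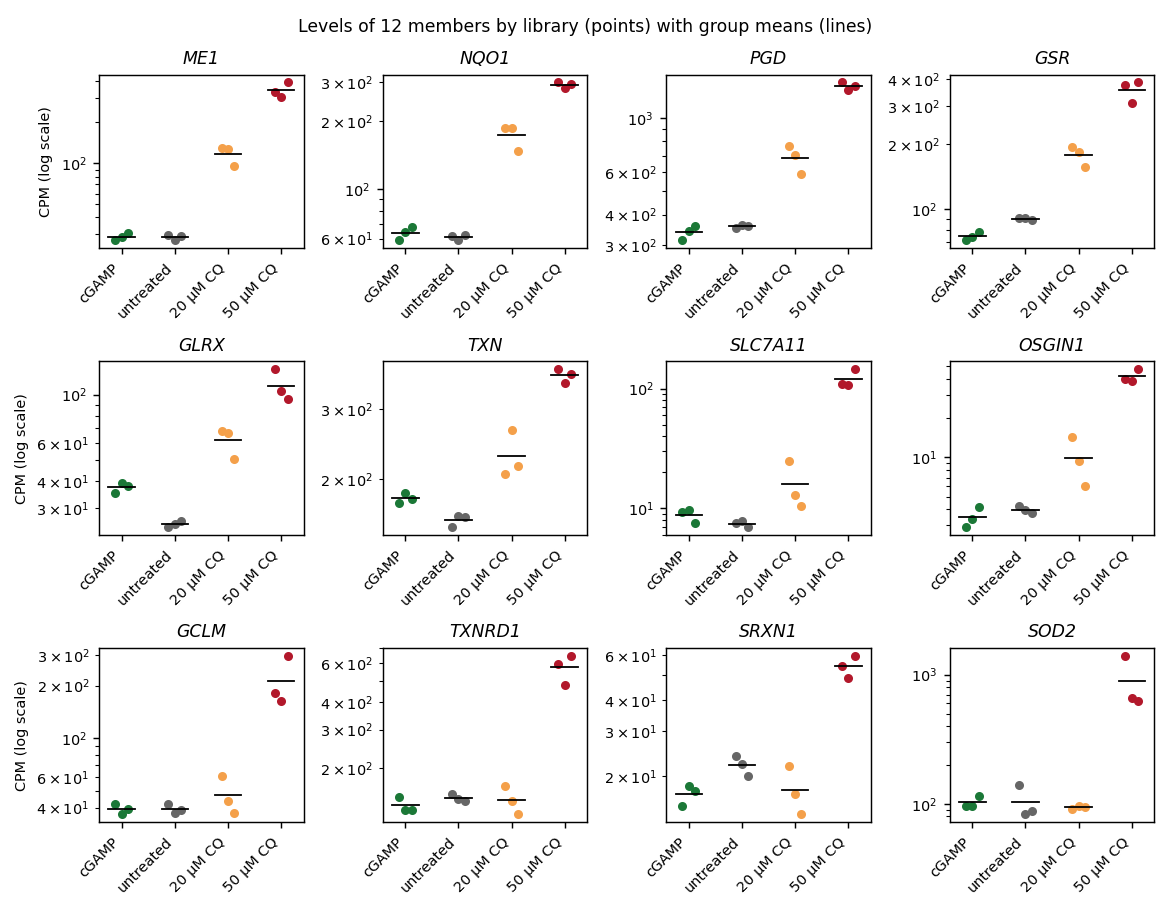
CPM on a log axis in each library (points) for 12 of the genes, with cGAMP left of untreated cells and then 20 and 50 μM chlorquinaldol (CQ), lines marking the group mean of 3 libraries. ME1, NQO1, PGD, GSR, GLRX, TXN, SLC7A11 and OSGIN1 were called higher at both doses, whereas the libraries of GCLM, TXNRD1, SRXN1 and SOD2 at 20 μM overlapped those of untreated cells.

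Of the 8 thioredoxin system genes, 4 rose and 4 fell at 50 μM (50.0% each), against 32.2% and 34.7% of all tested genes. The cytosolic pair and the mitochondrial pair moved apart at 50 μM. TXN (chr9:110243811-110256640, minus strand), cytosolic thioredoxin, had 151, 161 and 160 CPM in untreated cells, 206, 265 and 215 CPM at 20 μM and 378, 349 and 367 CPM at 50 μM. Its groups were separate, and TXN rose by log2 0.54 ± 0.09 at 20 μM (adjusted p = 6.21e-05) and 1.21 ± 0.09 at 50 μM (adjusted p = 2.32e-09). TXNRD1 (chr12:104215779-104350305, plus strand), the cytosolic selenoenzyme that reduces thioredoxin with NADPH, had 153, 145 and 142 CPM in untreated cells, 166, 143 and 124 CPM at 20 μM and 598, 479 and 646 CPM at 50 μM. The libraries at 20 μM spread around those of untreated cells, whereas those at 50 μM stood far above. TXNRD1 was not called at 20 μM (log2 −0.03 ± 0.11, adjusted p = 0.854), with a 95% interval from −0.27 to 0.21, and rose by log2 1.97 ± 0.12 at 50 μM (3.91-fold, adjusted p = 1.57e-10). TXN2, mitochondrial thioredoxin, fell by 0.49 on the log2 scale at 50 μM (SE 0.08, adjusted p = 5.66e-05). TXNRD2, its mitochondrial reductase, fell by 0.24 (SE 0.10) with an adjusted p of 0.0498, which passed 0.05 when any of 9 of the 12 libraries was left out (up to 0.386 without replicate 3 at 50 μM), and in 15 of all 22 alternatives. At 20 μM, TXN2 and TXNRD2 were also called lower, at log2 −0.23 (adjusted p = 0.0269) and −0.25 (adjusted p = 0.0496). These calls were lost when any of 8 libraries (TXN2, up to 0.201 without replicate 1 at 20 μM) or of 10 libraries (TXNRD2, up to 0.269 without replicate 2 at 20 μM) was left out, and in 9 (TXN2) and 19 (TXNRD2) of all 22 alternatives.

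SRXN1 (chr20:646615-653370, minus strand), sulfiredoxin, which repairs over-oxidised peroxiredoxins, had 24.0, 22.2 and 20.0 CPM in untreated cells, 21.9, 16.9 and 14.1 CPM at 20 μM and 54.4, 48.8 and 59.5 CPM at 50 μM. All libraries at 50 μM were above all others, and those at 20 μM reached below the untreated range. SRXN1 had a log2 change of −0.33 ± 0.13 at 20 μM with an adjusted p of 0.0501, which was 0.0048 without replicate 1 at 20 μM, 0.0415 without untreated replicate 3 and 0.0392 with no low-count filter. At 50 μM SRXN1 rose by log2 1.30 ± 0.13 (adjusted p = 1.02e-07). GLRX (chr5:95751319-95823005, minus strand), a glutaredoxin that uses glutathione to reduce protein disulfides, had 24.4, 25.2 and 26 CPM in untreated cells, 67.8, 66.3 and 50.5 CPM at 20 μM and 131, 104 and 95.3 CPM at 50 μM. GLRX groups were separate at every dose. GLRX rose by log2 1.29 ± 0.12 at 20 μM (adjusted p = 1.46e-07) and 2.13 ± 0.12 at 50 μM (adjusted p = 1.05e-10). RHOBTB3 lies on the opposite strand of GLRX and averaged 385.8 counts per library beside 1081.7 for GLRX. TXNIP, which binds and inhibits thioredoxin, averaged 425 ± 53.0 CPM in untreated cells, 469 ± 42.3 CPM at 20 μM and 270 ± 73.0 CPM at 50 μM (SD, n = 3 each). TXNIP was not called at 20 μM and fell by 0.65 on the log2 scale at 50 μM (SE 0.15, adjusted p = 0.000704). SESN3, a sestrin that restrains mTORC1 signaling, fell by 0.47 at 20 μM (SE 0.15, adjusted p = 0.0135) and by 0.71 at 50 μM (SE 0.15, adjusted p = 0.000479). The SESN3 call at 20 μM was lost without replicate 2 (adjusted p = 0.0841) or replicate 3 (0.0701) at 20 μM or untreated replicate 1 (0.0625), and in all 3 limma fits (up to 0.151).

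The 6 peroxiredoxins, peroxidases that draw on thioredoxin or, for PRDX6, on glutathione, differed from untreated cells by less than 2-fold at either dose. At 50 μM, PRDX1, PRDX2, PRDX4 and PRDX6 rose, by log2 0.83, 0.49, 0.33 and 0.30. The PRDX4 call was lost in all 3 limma fits on FPKM (log2 down to 0.18, adjusted p up to 0.142) and the PRDX6 call in limma unfiltered (0.0507). PRDX3, found in mitochondria, fell by 0.34 on the log2 scale (SE 0.09, adjusted p = 0.00243, and 0.0551 without replicate 2 at 50 μM). PRDX5, found in mitochondria and peroxisomes among other sites, fell by 0.23 (SE 0.10, adjusted p = 0.0443), a call lost when any of 9 libraries was left out (up to 0.506 without replicate 3 at 50 μM) and in 14 of all 22 alternatives. PRDX1, the abundant cytosolic form, averaged 257 ± 8.56 CPM in untreated cells, 329 ± 24.6 CPM at 20 μM and 457 ± 26.9 CPM at 50 μM (SD, n = 3 each). It rose at 20 μM (log2 0.36 ± 0.08, adjusted p = 0.00101) and again between the doses (log2 0.47 ± 0.08, adjusted p = 0.00016). PRDX2 rose at 20 μM (log2 0.53 ± 0.12, adjusted p = 0.000986) and was not called between the doses, where the difference was log2 −0.04 with a 95% interval from −0.28 to 0.21.

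Among the other peroxide and superoxide enzymes, CAT fell at both doses and SOD2 rose at 50 μM, while calls of GPX4 and GPX1 depended on the setting. CAT (chr11:34438925-34472062, plus strand), catalase, the peroxisomal enzyme that splits hydrogen peroxide without NADPH, had 525, 508 and 557 CPM in untreated cells, 249, 310 and 293 CPM at 20 μM and 228, 227 and 270 CPM at 50 μM. Both doses were far below untreated cells, with replicate 1 at 20 μM inside the range of the 50 μM libraries. CAT fell by 0.90 on the log2 scale at 20 μM (SE 0.09, adjusted p = 4.09e-07) and by 1.13 at 50 μM (SE 0.09, adjusted p = 1.04e-08). SOD2, the mitochondrial superoxide dismutase and a known target of NF-κB, had 140, 83.0 and 88.1 CPM in untreated cells, 91.6, 96.9 and 95.2 CPM at 20 μM and 1390, 654 and 626 CPM at 50 μM. The 20 μM libraries lay within the untreated range, and at 50 μM replicate 1 was far above the other two. SOD2 was not called at 20 μM (log2 −0.13 ± 0.24, adjusted p = 0.669) and rose by log2 3.10 ± 0.25 at 50 μM (8.6-fold, adjusted p = 8.46e-09). Over all alternatives the SOD2 change at 50 μM ran from log2 2.70 to 3.38. GPX4 (chr19:1103926-1106791, plus strand), which reduces lipid peroxides in membranes, had 104, 112 and 109 CPM in untreated cells, 97.4, 99.8 and 82.9 CPM at 20 μM and 136, 134 and 125 CPM at 50 μM. These groups did not overlap. GPX4 was called in opposite directions at the 2 doses, at log2 −0.21 ± 0.08 at 20 μM (adjusted p = 0.0412) and 0.28 ± 0.08 at 50 μM (adjusted p = 0.00644). The call at 20 μM was lost when any of 11 of the 12 libraries was left out, up to an adjusted p of 0.415 without replicate 3 at 20 μM, and in 17 of all 22 alternatives, DESeq2 (0.0557) and both other scalings included. The call at 50 μM was lost in all 3 limma fits on FPKM (log2 0.15, adjusted p up to 0.12). GPX1, the abundant cytosolic glutathione peroxidase, was not called at 20 μM (log2 0.24 ± 0.11, adjusted p = 0.0752, 0.02 to 0.0472 without any of 7 libraries, and 0.032 with DESeq2) or at 50 μM (log2 −0.20 ± 0.11, adjusted p = 0.121, 0.0422 without untreated replicate 1, and 0.00817 to 0.0299 in the limma fits). Between the doses GPX1 was lower at 50 than at 20 μM, by log2 −0.43 ± 0.11 (adjusted p = 0.00451).

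The 6 glutathione transferases, which couple glutathione to electrophiles, and the export pump ABCC1 differed from untreated cells by less than 2-fold at either dose. At 50 μM, GSTM3, GSTP1, MGST1, GSTO1 and MGST3 rose, by log2 0.72, 0.48, 0.47, 0.27 and 0.26, and MGST2 fell by 0.58 on the log2 scale (SE 0.09, adjusted p = 2.4e-05). The GSTO1 call was lost without untreated replicate 1 (adjusted p = 0.0903) or 2 (0.0522), and the MGST3 call without untreated replicate 1 (0.0608). In all 3 limma fits on FPKM the calls of MGST1, GSTO1 and MGST3 were lost, with adjusted p-values up to 0.139, 0.321 and 0.401. ABCC1, which carries glutathione conjugates out of the cell, averaged 76.4 ± 2.54 CPM in untreated cells, 85.3 ± 3.63 CPM at 20 μM and 150 ± 18.1 CPM at 50 μM (SD, n = 3 each). It was not called at 20 μM (log2 0.16 ± 0.09, adjusted p = 0.136, 0.0253 without replicate 2 at 50 μM, and 0.04 in limma on log2(FPKM + 1)) and rose by log2 0.97 ± 0.09 at 50 μM (adjusted p = 2.76e-08), just outside the 2-fold mark. MGST3 was the gene called higher at both doses and lower at 50 than at 20 μM, with a mean of 103 ± 5.79 CPM at 50 μM and 125 ± 12.6 CPM at 20 μM (SD, n = 3 each). Between the doses it fell by 0.28 on the log2 scale (SE 0.09, adjusted p = 0.0157), a call lost without any of 4 libraries (adjusted p up to 0.0939 without replicate 2 at 20 μM). At 20 μM, GSTP1, GSTM3 and MGST3 rose, and MGST2 was called lower with an adjusted p of 0.0411, which was lost without any of 10 libraries (up to 0.402 without replicate 1 at 20 μM) and in 16 of all 22 alternatives. GSTM3 at 20 μM had an adjusted p of 0.00908, and 0.061 without untreated replicate 1.

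Of the 5 genes grouped under NADPH supply, of which TALDO1 and TKT make no NADPH themselves, 4 rose (80.0%) and 1 fell (20.0%) at both doses. Of all tested genes, 32.2% were called higher and 34.7% lower at 50 μM, and 27.1% and 28.0% at 20 μM. ME1 (chr6:83210389-83431071, minus strand), cytosolic malic enzyme, had 29.7, 27.5 and 29.1 CPM in untreated cells, 129, 127 and 96.3 CPM at 20 μM and 334, 308 and 393 CPM at 50 μM. The groups were wide apart, and ME1 had the largest change of the 41 genes at 20 μM. ME1 rose by log2 2.03 ± 0.12 at 20 μM (adjusted p = 4.75e-10) and 3.58 ± 0.12 at 50 μM (adjusted p = 3.5e-13). PGD (chr1:10398592-10420144, plus strand), the 6-phosphogluconate dehydrogenase that makes NADPH in the pentose phosphate pathway, had 352, 362 and 360 CPM in untreated cells, 766, 703 and 587 CPM at 20 μM and 1400, 1300 and 1350 CPM at 50 μM. Untreated libraries lay close together, and no groups overlapped. PGD rose by log2 0.94 ± 0.09 at 20 μM (adjusted p = 2.54e-07) and 1.91 ± 0.10 at 50 μM (adjusted p = 1.97e-11). TALDO1 and TKT, the transaldolase and transketolase that return pentose phosphates to glycolysis, rose by log2 0.89 and 0.81 at 50 μM and by 0.44 and 0.30 at 20 μM. IDH1, the cytosolic isocitrate dehydrogenase, fell by 0.35 on the log2 scale at 20 μM (SE 0.10, adjusted p = 0.00857, 0.0773 without replicate 1 at 20 μM, and up to 0.14 in the limma fits) and by 0.55 at 50 μM (SE 0.10, adjusted p = 0.000161). OSGIN1 (chr16:83948282-83966332, plus strand), an oxidative stress-induced growth inhibitor, had 4.22, 3.95 and 3.73 CPM in untreated cells, 14.2, 9.45 and 6.05 CPM at 20 μM and 39.7, 38.3 and 47.4 CPM at 50 μM. Its groups did not overlap, though replicate 3 at 20 μM came near untreated cells. OSGIN1 rose by log2 1.32 ± 0.23 at 20 μM (adjusted p = 0.000125) and 3.40 ± 0.22 at 50 μM (10.5-fold, adjusted p = 3.88e-10).

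**Figure D3:**
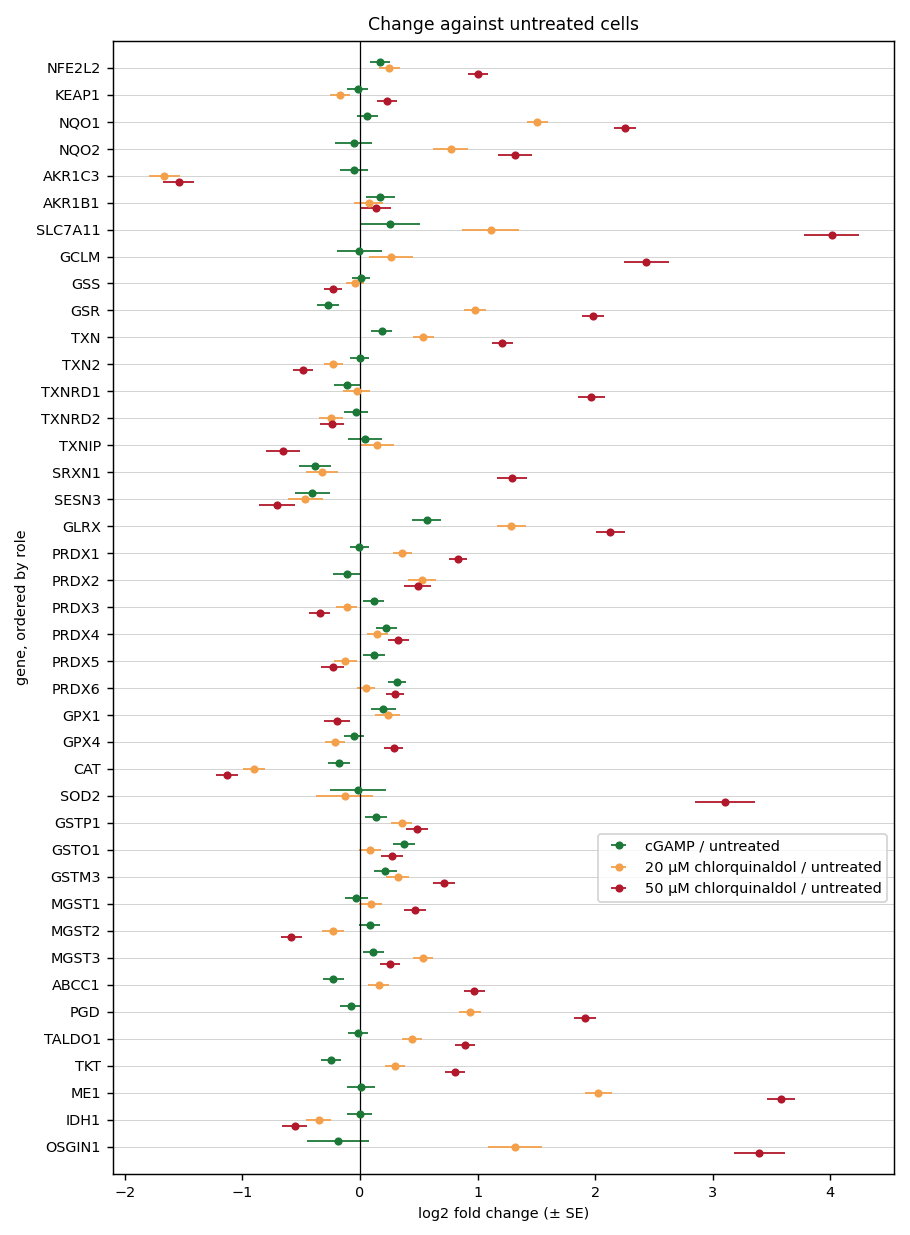
Log2 fold change against untreated cells with its SE (bars) for the 41 genes, for cGAMP and for 20 and 50 μM chlorquinaldol. Points at 50 μM run from −1.54 for AKR1C3 to 4.01 for SLC7A11, while those for cGAMP stay between −0.40 and 0.57.

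The direct comparison of the doses, which shares no untreated library, found 23 genes higher and 5 lower at 50 than at 20 μM, against 19.1% and 19.0% of all tested genes. 14 genes were called higher at 20 μM and higher again at 50 μM against 20 μM: NFE2L2, NQO1, NQO2, SLC7A11, GSR, TXN, GLRX, PRDX1, GSTM3, PGD, TALDO1, TKT, ME1 and OSGIN1. Another 8 were not called at 20 μM but higher at 50 than at 20 μM: KEAP1, GCLM, TXNRD1, SRXN1, PRDX6, SOD2, MGST1 and ABCC1. GPX4, called lower at 20 μM, was the remaining gene higher at 50 than at 20 μM. The calls of NQO2, GSTM3, PRDX6 and MGST1 between the doses were lost in all 3 limma fits on FPKM. Their adjusted p-values there reached 0.308, 0.111, 0.447 and 0.262. Both calls of a class use the same 20 μM libraries, so they are not independent. The share of all tested genes in these classes was not counted. For GCLM, TXNRD1, SRXN1 and SOD2 the step was log2 2.17, 2.00, 1.62 and 3.23, while for NQO1 and GLRX it was 0.75 and 0.84 after a larger change at 20 μM. AKR1C3, CAT, IDH1, SESN3 and TXNRD2 were lower at 20 μM and not called between the doses. For CAT, the 50 μM minus 20 μM difference was log2 −0.23 with an adjusted p of 0.0581, which was 0.017 without replicate 1 at 20 μM and 0.0247 without replicate 3 at 50 μM. The 5 genes lower at 50 than at 20 μM were TXN2, TXNIP, GPX1, MGST2 and MGST3. Of these calls, that of TXN2 was lost without any of 3 libraries (adjusted p up to 0.153, without replicate 2 at 20 μM), and that of MGST2 without replicate 2 at 20 μM (0.0587).

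Replicate 3 at 20 μM was the highest of its group for 0 of the 41 genes and the lowest for 29, where over all tested genes it was the highest for 31.8% and the lowest for 33.1%. For SLC7A11, OSGIN1, SRXN1 and TXNRD1, replicate 1 was the highest and replicate 3 the lowest of that group. Without replicate 3, 19 genes were higher and 3 lower at 20 μM than in untreated cells, beside 17 and 8 with it. cGAMP replicate 1 was the lowest of its group for 28 of the 41 genes (41.6% of all tested genes), and untreated replicate 1 for 21 (34.9%). Without cGAMP replicate 1, 3 genes were higher and 1 lower with cGAMP than in untreated cells, and without untreated replicate 1, 25 were higher and 12 lower at 50 μM. Replicate 2 at 50 μM was the highest of its group for 8 of the 41 genes and the lowest for 18. Over all tested genes it was the highest for 30.6% and the lowest for 29.8%. Of the 23 genes called higher at 50 than at 20 μM, that library was the highest for 0 and the lowest for 16. The labels name no batch.

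Per gene length, measured as the deposited FPKM values, the order of the genes shifted with the dose. GPX1 stood first at 50 μM, at 863 ± 94.0 FPKM, and first in untreated cells, at 1090 ± 107 FPKM (SD, n = 3 each). At 50 μM the next places were held by TXN, at 681 ± 23.0 FPKM, and PGD, at 648 ± 22.5 FPKM, whose libraries overlapped. In untreated cells the next were PRDX1, at 373 ± 11.2 FPKM, and GSTP1, at 365 ± 20.4 FPKM, whose libraries also overlapped. CAT was in place 20 at 50 μM (117 ± 14.8 FPKM) and in place 6 in untreated cells (275 ± 8.37 FPKM). SOD2 was in place 7 at 50 μM (421 ± 168 FPKM) and in place 25 in untreated cells (43.3 ± 13.3 FPKM). SLC7A11 was in place 38 at 50 μM, at 12.9 ± 2.56 FPKM, and the lowest of the 41 genes in untreated cells, at 0.893 ± 0.124 FPKM.

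**Figure D4:**
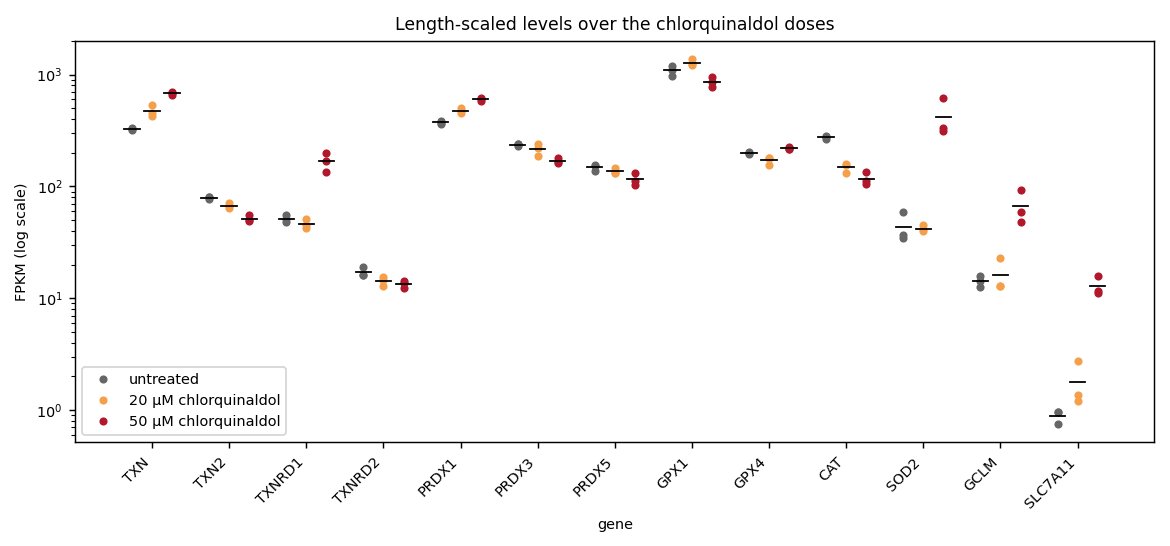
FPKM on a log axis in each library (points) and group means of 3 libraries (lines) for 13 of the genes, in untreated cells and at 20 and 50 μM chlorquinaldol. TXN and TXNRD1 climb at 50 μM, where their mitochondrial counterparts TXN2 and TXNRD2 do not, and CAT and SOD2 cross between 20 and 50 μM.

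cGAMP shares its untreated libraries with the chlorquinaldol comparisons. After 8 h of cGAMP, 3 of the 41 genes were called higher and 3 lower than in untreated cells (7.32% each), against 11.6% and 11.8% of all tested genes, and none reached 2-fold. The 3 higher became 8 when only the cGAMP and untreated libraries were fitted and 2 to 6 with a library left out (6 without replicate 2 at 20 μM). The 3 lower became 5 with only those groups or with upper-quartile factors, 0 with RLE factors or the replicate block, and 0 or 1 without any single library. GLRX had 35.0, 38.9 and 38.0 CPM with cGAMP, against 24.4, 25.2 and 26 CPM in untreated cells, with no overlap, and rose by log2 0.57 ± 0.12 (adjusted p = 0.00294). PRDX6, a peroxiredoxin with phospholipase activity, had 159, 179 and 183 CPM with cGAMP, against 133, 140 and 145 CPM in untreated cells, also without overlap (log2 0.32 ± 0.08, adjusted p = 0.00596). GSTO1, an omega-class transferase that can reduce dehydroascorbate, rose by log2 0.37 ± 0.10 (adjusted p = 0.00911, and 0.0548 without untreated replicate 1 or 0.0503 without cGAMP replicate 3). GSR, SRXN1 and TKT were called lower, at log2 −0.27, −0.38 and −0.25, with adjusted p-values of 0.0464, 0.0497 and 0.0429. Leaving out any single library ended the calls of GSR (0.0679 to 0.217) and TKT (0.0596 to 0.167), and any of 10 libraries ended that of SRXN1 (0.0503 to 0.193). SLC7A11, NQO1, ME1, GCLM and SOD2 were not called with cGAMP, with changes of log2 0.25, 0.06, 0.01, −0.00 and −0.02.

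Set directly against cGAMP, 50 μM chlorquinaldol had 24 of the 41 genes higher and 10 lower, against 32.0% and 34.7% of all tested genes. ME1 had 334, 308 and 393 CPM at 50 μM, against 27.1, 28.9 and 30.8 CPM with cGAMP. SOD2, an inducible gene in many immune responses, had 1390, 654 and 626 CPM at 50 μM, against 95.5, 96.5 and 115 CPM with cGAMP. Both genes were separate between the groups, at log2 3.58 ± 0.12 for ME1 (adjusted p = 5.45e-13) and 3.12 ± 0.25 for SOD2 (adjusted p = 7.99e-09). PRDX6 and GSTO1, which rose with cGAMP, differed between 50 μM chlorquinaldol and cGAMP by log2 −0.02 (95% interval −0.18 to 0.14) and −0.10 (−0.30 to 0.10).

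Other genes of the same pathways were read from 8 lists holding 126 genes of the tables, of which 111 passed the low-count filter. At 50 μM, 47 (42.3%) were higher and 37 (33.3%) lower than in untreated cells, against 32.2% and 34.7% of all tested genes. At 20 μM, 30 (27%) were higher and 37 (33.3%) lower, against 27.1% and 28.0%, and with cGAMP 14 (12.6%) each way, against 11.6% and 11.8%. Their median change at 50 μM was log2 0.07, beside log2 0.48 over the 41 genes. The lists and the 41 genes were chosen with earlier results of these data known, so this difference is no test of either.

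Among 16 partners and regulators of NRF2, 9 rose (56.2%) and 3 fell (18.8%) at 50 μM, against 32.2% and 34.7% of all tested genes. BACH1, the repressor that competes with NRF2 for its DNA element, had 41.2, 41.9 and 48.9 CPM in untreated cells, 119, 127 and 116 CPM at 20 μM and 273, 230 and 251 CPM at 50 μM, and rose by log2 1.45 ± 0.09 and 2.52 ± 0.09. MAFF, a small MAF partner, rose by log2 2.22 ± 0.21 at 20 μM and 3.77 ± 0.21 at 50 μM, and SQSTM1, the autophagy receptor that binds KEAP1, by 0.73 ± 0.15 and 2.66 ± 0.15. NFE2L3, a relative of NRF2, had 24.4, 24.2 and 25.3 CPM with cGAMP, against 11.2, 8.71 and 8.33 CPM in untreated cells, and rose by log2 1.39 ± 0.13 (adjusted p = 4.65e-07). Of 15 other NRF2-linked detoxification genes, 10 rose (66.7%) and 2 fell (13.3%) at 50 μM. HMOX1, heme oxygenase, FTH1, ferritin heavy chain, and ABHD4, a lipid hydrolase, rose by log2 7.35 ± 0.33, 4.52 ± 0.15 and 2.58 ± 0.14. FTH1 has many processed pseudogenes that may share its reads. CBR1, a carbonyl reductase, and BLVRA, biliverdin reductase, rose with cGAMP by log2 1.07 ± 0.10 and 1.54 ± 0.10 (adjusted p = 2.43e-07 and 1.17e-09). Neither was higher at 50 μM than in untreated cells, where CBR1 fell by 0.60 on the log2 scale (SE 0.10) and BLVRA was not called (log2 −0.18 ± 0.10, adjusted p = 0.123).

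Of 17 other genes of glutathione synthesis, recycling and transport, 7 rose and 7 fell at 50 μM (41.2% each), against 32.2% and 34.7% of all tested genes. ABCC3, a conjugate export pump, had 2.01, 1.64 and 1.81 CPM in untreated cells, 17.5, 12 and 8.75 CPM at 20 μM and 66.0, 67.3 and 76.0 CPM at 50 μM, and rose 38.2-fold at 50 μM (log2 5.25 ± 0.21). ABCC4, a related pump, and GLRX5, a mitochondrial glutaredoxin of iron-sulfur cluster assembly, fell by 1.46 (SE 0.12) and 1.53 (SE 0.10) on the log2 scale. Of 12 other glutathione peroxidases and transferases, 1 rose (8.33%) and 5 fell (41.7%). GSTK1, a mitochondrial and peroxisomal transferase, GSTZ1, which also works in tyrosine breakdown, and LANCL1 fell by 1.02, 0.84 and 0.80 on the log2 scale (SE 0.07, 0.11 and 0.09). Of 14 other thioredoxin system genes, 5 rose (35.7%) and 7 fell (50.0%). ARRDC3, an arrestin-fold relative of TXNIP, and SESN1, a sestrin, rose by log2 2.34 ± 0.12 and 1.30 ± 0.08, in contrast to TXNIP and SESN3, and TXNDC5, a thioredoxin-fold protein of the endoplasmic reticulum, fell by 1.70 (SE 0.10).

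**Figure D5:**
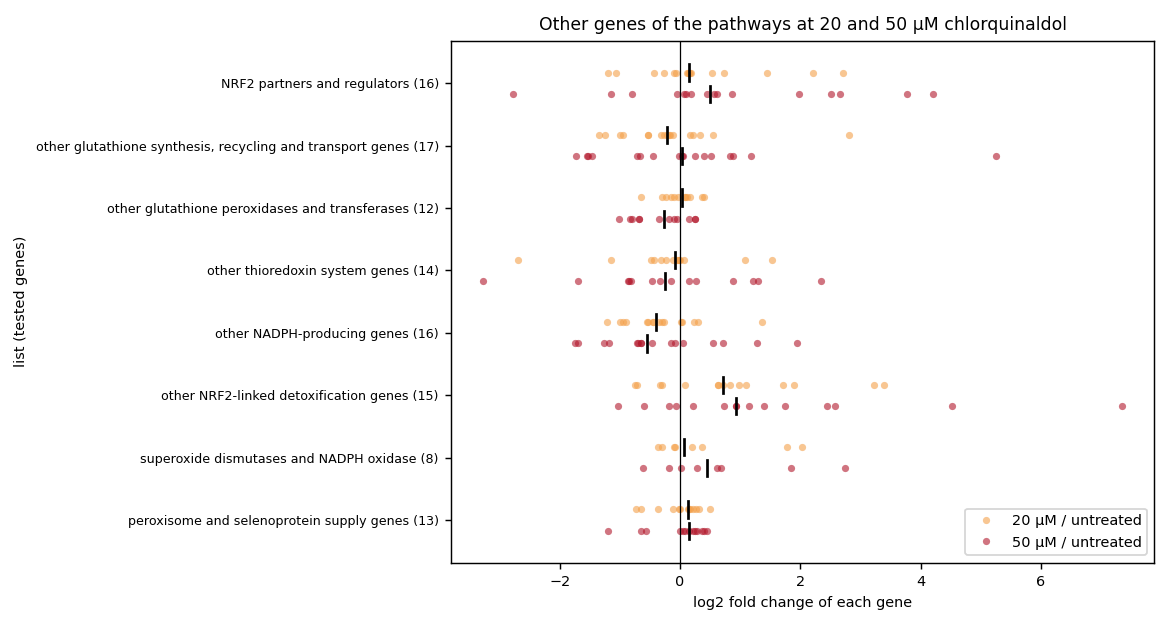
Log2 fold change against untreated cells of each tested gene (points) in the 8 lists of other pathway genes, at 20 and 50 μM chlorquinaldol, with the list median as a black bar and the number of tested genes in brackets. The medians of the list labelled other NADPH-producing genes lie below 0 at both doses and those of other NRF2-linked detoxification genes above 0.

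The list of 16 other NADPH-producing genes also holds genes that make no NADPH themselves, such as RPIA, RPE, PGLS, NADK and NADK2. These were called lower at both doses. Of the 16, 4 rose (25%) and 9 fell (56.2%) at 50 μM, against 32.2% and 34.7% of all tested genes. At 20 μM, 3 rose (18.8%) and 11 fell (68.8%), against 27.1% and 28.0%. NNT, the mitochondrial transhydrogenase that makes NADPH from NADH, had 202, 192 and 195 CPM in untreated cells, 94.5, 100 and 112 CPM at 20 μM and 54.9, 56.0 and 64.8 CPM at 50 μM, and fell by 1.75 on the log2 scale at 50 μM (SE 0.09). MTHFD1, a folate-cycle enzyme that also yields NADPH, fell by 1.69 (SE 0.10). Of 8 other superoxide dismutase and NADPH oxidase genes, 5 rose (62.5%) and 1 fell (12.5%) at 50 μM. CYBB and NCF1, which encode the catalytic subunit and an organiser of the phagocyte oxidase, rose by log2 1.85 ± 0.15 and 2.74 ± 0.19, and NCF4, another cytosolic subunit, fell by 0.61 (SE 0.07). NCF1 has near-identical copies that may share its reads. Of 13 peroxisome and selenoprotein supply genes, 6 rose (46.2%) and 3 fell (23.1%) at 50 μM, those that fell being SEPHS1, SEPHS2 and EEFSEC. These fell by 1.19 (SE 0.09), 0.64 (SE 0.07) and 0.57 (SE 0.12) on the log2 scale. SEPHS2 and EEFSEC serve selenocysteine synthesis and insertion, which TXNRD1 and GPX4 need. Other genes of the same steps did not fall: SEPSECS and TRNAU1AP were called higher, and PSTK and SECISBP2 were not called.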

How the data were processed

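Per the labels' protocols, oligo(dT)-selected RNA was read on the BGI DNBSEQ platform. Per the submitters' processing notes, RSEM, GRCh38 and DESeq2 1.26.0 were used; roles, the annotation release and strand use are not given in the sources used here. The deposited tables hold estimated counts and FPKM per gene made by the authors for each of 12 libraries.

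Estimated counts (42.3% not whole) were rounded, and 326 entries without an Ensembl gene identifier were left out (at most 0.29% of a library's counts). edgeR 4.0.16 (R 4.3.3) was run with filterByExpr (minimum count 10), TMM factors (0.9048 to 1.061) and 1 quasi-likelihood model of the 4 groups, with 8 residual degrees of freedom and Benjamini-Hochberg adjustment over 16628 genes. Scripts were tested on simulated data. Libraries held 17620929 to 19222607 counts, and the number of libraries limits precision more than depth does: an exact permutation test of 3 against 3 cannot go below p = 0.1, so single genes rest on the model.

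Alternatives were upper-quartile or RLE factors, DESeq2 1.42.0, a model of just the groups being compared, the replicate number as a block, a filter of 5 CPM in at least 3 libraries or none, limma 3.58.1 on log2(FPKM + 1) or log2(FPKM + 0.1) of genes with a mean FPKM of at least 1 or unfiltered, and each library left out. Members and lists were chosen with earlier results of these data known. Values per library are given for genes called and at least 2-fold changed at either dose, for NFE2L2 and KEAP1, and for genes called in opposite directions at the 2 doses. Of each other list, up to 3 genes with the smallest p at 50 μM are named, and those called at least 2-fold with cGAMP. A gene that this rule would name is not reported here, and GCLC and GSTT1 were not analysed here. Promoter windows are RefSeq's (GRCh38.p14). Without strand, reads of genes overlapping on opposite strands cannot be told apart (besides those named in the results, NFE2L2 with AGPS, PRDX1 with MMACHC, GSTM3 with GSTM5, MGST2 with MAML3 and SLC7A11 with SLC7A11-AS1), and near-identical copies of PRDX1 and GSTM3 may share reads.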

Additional observations from a re-analysis of the deposited data

How the results depend on the processing

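Over 4510 combinations of gene, comparison and alternative, 4218 kept direction and side of the threshold, 217 lost and 75 gained a call, and 0 reversed. The members lower at 20 μM than in untreated cells, 8 in the main analysis, numbered 5 with DESeq2, RLE factors, upper-quartile factors, no filter, or limma on log2(FPKM + 1) or log2(FPKM + 0.1), and 4 with limma unfiltered. Members higher with cGAMP, 3 in the main analysis, numbered 8 with only the groups compared. Members lower with cGAMP, also 3, numbered 0 with RLE factors, 5 with upper-quartile factors or only the groups compared, and 1 with limma unfiltered. Members lower at 50 than at 20 μM, 5 in the main analysis, numbered 8 with upper-quartile factors and in each limma fit. Other pathway genes higher with cGAMP, 14 in the main analysis, numbered 7 in both filtered limma fits and 5 unfiltered, and those lower, also 14, 9 with limma on log2(FPKM + 1) and 7 unfiltered. The cause was not tested. limma moved the median of all genes at 50 μM against untreated cells by log2 −0.12 (+ 1) and −0.14 (+ 0.1).

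With each library left out in turn, members higher and lower than in untreated cells numbered 25 to 29 and 8 to 12 at 50 μM, 15 to 19 and 3 to 8 at 20 μM, and 2 to 6 and 0 to 1 with cGAMP. At 50 against 20 μM they numbered 23 to 25 and 2 to 6, and at 50 μM against cGAMP 23 to 24 and 9 to 11. Other pathway genes numbered 41 to 52 and 36 to 37 at 50 μM, 26 to 35 and 29 to 38 at 20 μM, and 7 to 20 and 7 to 13 with cGAMP. The fewest members lower at 20 μM were found without replicate 3 at 20 μM, and the fewest lower at 50 than at 20 μM without replicate 2 at 20 μM.

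Same-numbered libraries showed no strong shared deviation (18 pairs, correlations −0.113 to 0.0671, beside −0.0908 to 0.129 for 36 others). A weak one could go unseen, and the labels do not say how replicates were numbered. With the replicate number as a block, members higher and lower numbered 28 and 10 at 50 μM, 17 and 7 at 20 μM, 3 and 0 with cGAMP, 23 and 5 at 50 against 20 μM, and 24 and 10 at 50 μM against cGAMP. Other pathway genes numbered 47 and 37, 30 and 37, and 14 and 14 under that block.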
